A study of Mus musculus with 8 samples.

Results

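Aminoacyl-tRNA synthetases join each amino acid to its transfer RNA, and the charged tRNA then brings the amino acid to the ribosome. Mammalian cells keep separate sets for the cytosol and for the mitochondrion, both encoded in the nucleus. The cytosolic set serves all proteins made from nuclear mRNA, including the secreted proteins of the liver, and the mitochondrial set serves only the few proteins of the respiratory chain that are encoded in mitochondrial DNA. Several cytosolic synthetases are bound together in a multisynthetase complex. Many cytosolic synthetase genes are known targets of ATF4, the transcription factor of the integrated stress response, which also drives amino acid uptake and synthesis.

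The members are the protein-coding genes of both deposited count tables that are named as tRNA synthetases, a letter followed by ars with an optional 1 or 2, or Eprs, together with Farsa and Farsb. The rule gave 37 genes among the 48286 gene IDs that both tables hold. Of these, 20 encode cytosolic enzymes and 17, whose names end in 2, encode mitochondrial enzymes. Gars and Kars were counted as cytosolic, although each is known to make both forms from a single gene. The cytosolic set includes 8 members of the multisynthetase complex, which are Eprs, Iars, Lars, Mars, Qars, Rars, Kars and Dars. Eprs joins both glutamate and proline, and Farsa and Farsb are the subunits of a single enzyme.

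RNA-seq was made from livers of wild-type male C57BL/6J mice of 8 to 9 weeks, taken 24 h after the dose, with 2 livers per group. Fed mice were injected intraperitoneally with thioacetamide (TAA, a hepatotoxin) at 200 mg/kg, and the group PBS held fed mice injected with the same volume of PBS. Mice of the group Fasted_APAP were fasted overnight, given acetaminophen (APAP, the analgesic that injures the liver in overdose) intragastrically at 500 mg/kg and kept fasting for 6 h afterwards, and the group Fasted_PBS held fasted mice given PBS. Feeding, agent, route and deposited table therefore differ together between the models, and treated livers were compared only with controls of the same model. Whole liver was sequenced, so fewer cells of a type and less RNA per cell cannot be told apart.

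The counts in named genes came to between 22320159 and 41453751 per liver. Alb, which encodes albumin, stood between 31410 and 90357 CPM (counts divided by the library's total after scaling by trimmed-mean factors, TMM, and expressed on the usual common scale) in all 8 livers. Over 16 interferon-inducible genes the summed level was 1974 CPM in PBS replicate 1 and 834 CPM in PBS replicate 2, against 293 and 321 CPM after TAA. The PBS livers therefore differ for these genes, and 2 livers cannot show which of them is unusual. Calls of the synthetase genes in the TAA comparison are also given without each of them.

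Promoters (from 250 bases before to 50 bases after the annotated start) were matched in RefSeq on GRCm38.p6 for 27 of the 37 members, 13 of them cytosolic and 14 mitochondrial, the latter with 15 promoters. Each was searched on both strands for TGATGNAA, the core of the C/EBP-ATF element that ATF4 binds with a C/EBP partner, for the E-box CACGTG, and for GCGCATGC, the core of the site of NRF1, a known regulator of nuclear genes for mitochondrial proteins. TGATGNAA was found in 5 of 13 cytosolic promoters (38.5%, in Aars, Gars, Iars, Tars and Yars), in 0 of 15 mitochondrial promoters and in 3.60% of 21263 promoters of protein-coding genes. CACGTG was found in 4 of 13 cytosolic promoters (30.8%, in Aars, Farsb, Iars and Tars), in 1 of 15 mitochondrial promoters (6.67%, in Ears2) and in 7.84% of those of protein-coding genes. GCGCATGC was found in 0 of 13 cytosolic promoters, in 3 of 15 mitochondrial promoters (20%, in Rars2, Vars2 and Wars2) and in 3.52% of those of protein-coding genes. Matches of different motifs shared 0 bases. These counts describe letters in the windows, and the windows hold too few members for more than a description.

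Stretches around matches that lie before the start are shown for some of these genes, so that the letters counted can be seen. Each is read 5′ to 3′ on the strand of its gene, and capitals mark the motif match, which on the opposite strand reads as its reverse complement.
Aars, chr8:111033685-111033712, plus strand, CACGTG: gtcaaccctgtCACGTGacactccatgt
Gars, chr6:55037951-55037998, plus strand, TGATGNAA on the opposite strand: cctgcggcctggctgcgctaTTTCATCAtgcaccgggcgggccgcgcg
Tars, chr15:11399659-11399684, minus strand, TGATGNAA on the opposite strand: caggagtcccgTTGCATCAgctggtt
Iars, chr13:49682041-49682086, plus strand, CACGTG: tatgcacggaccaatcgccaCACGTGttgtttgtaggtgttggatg
Farsb, chr1:78488911-78488956, minus strand, CACGTG: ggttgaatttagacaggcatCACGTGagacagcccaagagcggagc
Vars2, chr17:35667593-35667658, minus strand, GCGCATGC on the opposite strand at both places: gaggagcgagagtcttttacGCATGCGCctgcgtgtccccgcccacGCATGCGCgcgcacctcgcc
Rars2, chr4:34614886-34614933, plus strand, GCGCATGC on the opposite strand: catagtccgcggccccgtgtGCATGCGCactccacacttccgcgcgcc
Wars2, chr3:99141006-99141053, plus strand, GCGCATGC: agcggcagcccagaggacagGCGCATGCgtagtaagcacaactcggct
The Aars and Tars stretches touch exons of transcripts in the GENCODE annotation, so these are cut to the match and its nearest bases.

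The cytosolic genes were the more abundant set in control livers. On the scale of CPM per kilobase of merged exons, the median level was 8.47 for the cytosolic and 3.03 for the mitochondrial genes in PBS livers, and 9.25 and 3.57 in Fasted_PBS livers. The highest level per kilobase was that of Nars, the asparaginyl enzyme, at 21.5 in PBS and 23.7 in Fasted_PBS livers. The lowest was that of Mars2, the mitochondrial methionyl enzyme, at 0.370 and 0.285. Every member passed the filter on low counts in both comparisons, with at least 36 counts in any liver.

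Summed over the class, the cytosolic genes had a higher total after TAA and a total close to that of the controls after APAP, while the mitochondrial genes had a lower total after APAP and, with TMM factors only, after TAA. The 20 cytosolic genes summed to 1023 and 1005 CPM in the PBS livers and to 1405 and 1415 CPM in the TAA livers. In the fasted model they summed to 1132 and 1110 CPM in the controls and to 1159 and 1142 CPM after APAP. The 17 mitochondrial genes summed to 287 and 315 CPM in PBS and to 268 and 259 CPM in TAA livers. They summed to 344 and 334 CPM in Fasted_PBS and to 217 and 234 CPM in Fasted_APAP livers. The treated and control livers did not overlap in any of these sums. With library totals alone, the mitochondrial sums overlapped after TAA, at 276 and 283 CPM in PBS and 293 and 272 CPM in TAA livers, and stayed apart after APAP, at 313 and 324 CPM against 227 and 253 CPM. The cytosolic sums were then 1028 and 1077 CPM in Fasted_PBS and 1215 and 1232 CPM in Fasted_APAP livers. Within each liver, where scaling plays no part, the ratio of the cytosolic to the mitochondrial sum was 3.57 and 3.19 in PBS and 5.25 and 5.47 in TAA livers. The ratio was 3.29 and 3.32 in Fasted_PBS and 5.35 and 4.87 in Fasted_APAP livers. Both models thus moved from a ratio between 3.19 and 3.57 to a ratio between 4.87 and 5.47. With 2 livers per group an exact permutation test of a single sum or ratio cannot reach significance, and none was made.

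**Figure D1:**
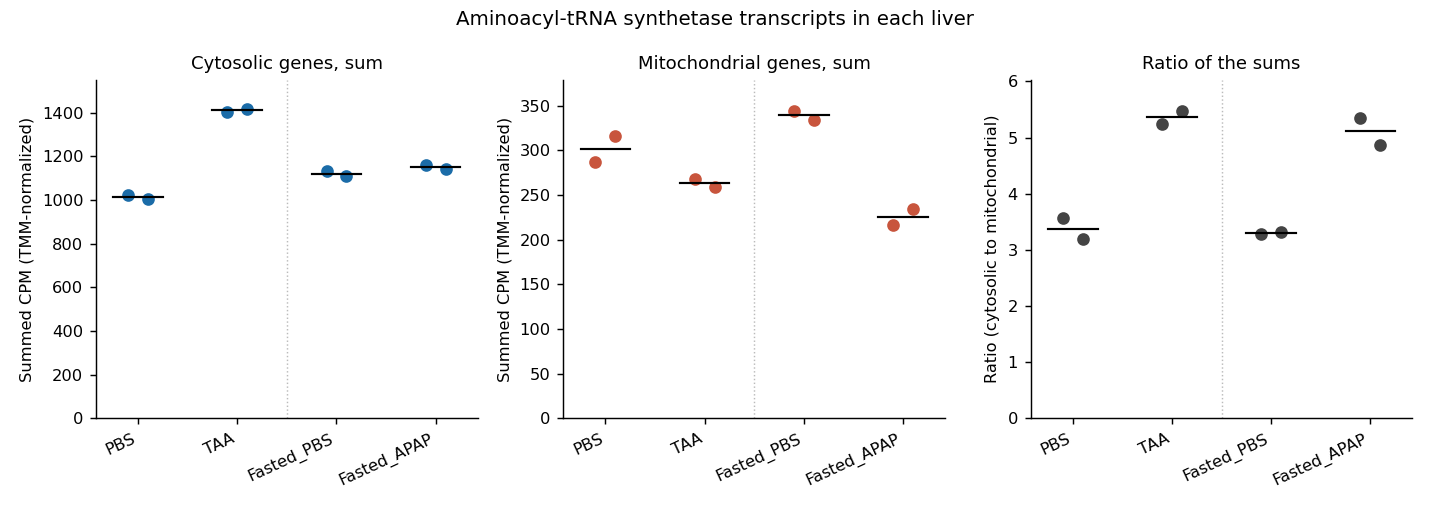
Summed level (CPM, TMM-normalized) of the 20 cytosolic and the 17 mitochondrial synthetase genes and the ratio of the sums, in each of the 8 livers (points) with the group mean (bar), all axes from 0. The ratio lies between 3.19 and 3.57 in the 4 control livers and between 4.87 and 5.47 in the 4 treated livers.

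After TAA, transcripts of cytosolic synthetases rose broadly. By edgeR's quasi-likelihood test with Benjamini-Hochberg adjustment over all genes, 12 of 20 cytosolic genes (60%) were higher at an adjusted p under 0.05, against 12.1% of the 16847 genes tested. None was lower, with 0 also at an unadjusted p under 0.05 and 0 by DESeq2, against 13.8% lower among all genes. The cytosolic median log2 fold change was 0.75, beside 0.03 for all genes, and the range ran from -0.14 for Aars to 1.07 for Wars. In 18 of the 20 genes both TAA livers lay above both PBS livers, as in 35.9% of all genes, and in the other 2, Aars and Dars, both lay below, as in 34% of all genes. Of the 17 mitochondrial genes 2 were lower, Nars2 and Fars2, a share of 11.8% that is below the 13.8% of all genes. In this set 0 were higher, against 12.1% of all genes, with 2 higher at an unadjusted p under 0.05 and 0 by DESeq2. The mitochondrial median was -0.09 on the log2 scale, 5 genes lay above and 8 below both controls, and the sign of this median turned to 0.12 when library totals alone set the scale.

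That scaling shifted the median of all genes from 0.03 to 0.23, and from 0.04 to 0.22 for APAP. Under it 63.4% of the called genes were higher after TAA and 61.9% after APAP, against 46.7% and 51.0% with TMM factors. After TAA the cytosolic median stayed above and the mitochondrial median below that of all genes under both scalings, and after APAP the cytosolic median lay within 0.01 of it under both. The TAA calls rest on both PBS livers, and on simulated counts more calls of this comparison were false than the level aimed at. Without PBS replicate 1 and without PBS replicate 2, edgeR called 0 cytosolic and 0 mitochondrial genes, while 12 cytosolic genes were higher at an unadjusted p under 0.05 in each case. Without PBS replicate 1 the log2 fold changes of the 12 called genes ran from 0.57 to 1.10 and their adjusted p from 0.0564 to 0.188, with 459 genes called higher in all instead of 2031. Without PBS replicate 2 they ran from 0.59 to 1.04, with adjusted p from 0.0711 to 0.162 and 322 genes called higher in all. DESeq2 was not run on these reduced sets.

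Wars, the tryptophanyl enzyme (chr12:108860030-108894174, minus strand, GRCm38), had the largest fold change. It stood at 15.9 and 15.1 CPM in the PBS livers and at 35.9 and 29.1 CPM in the TAA livers, a log2 fold change of 1.07 ± 0.17 (SE, n = 2 per group, edgeR adjusted p = 0.0117). The human gene is known to be induced by interferon. Of the 16 interferon-inducible genes 13 were lower after TAA (81.25%, against 13.8% of all genes) and 0 were higher (median -2.08). These TAA counts include PBS replicate 1 and are not given without it. After APAP 8 of the 16 were lower (50%, against 27.5% of all genes) and 1 was higher (6.25%, against 28.6%), with a median of -0.60. The part of this group in the value of Wars was not tested. Over the omission of each liver the log2 fold change of Wars ran from 0.91 to 1.22, with adjusted p from 0.0112 to 0.0943.

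Rars, the arginyl enzyme of the multisynthetase complex (chr11:35808381-35834506, minus strand), stood at 28.0 and 24.4 CPM in PBS and at 54.9 and 51.0 CPM in TAA livers (log2 fold change 1.01 ± 0.15, edgeR adjusted p = 0.00912). Iars, the isoleucyl enzyme of the same complex, stood at 28.4 CPM in both PBS livers and at 54.3 and 59.8 CPM after TAA (1.01 ± 0.14, edgeR adjusted p = 0.00789). Both TAA livers lay well above both PBS livers for Rars and for Iars. Gars, the glycyl enzyme, whose promoter holds TTTCATCA shortly before the start, went from 42.9 and 38.4 CPM to 72.0 and 79.2 CPM (0.90 ± 0.14, edgeR adjusted p = 0.0117). Hars, the histidyl enzyme, went from 31.2 and 31.3 CPM to 59.9 and 56.3 CPM (0.90 ± 0.13, edgeR adjusted p = 0.00931). The other 7 called cytosolic genes, Farsa, Tars, Nars, Vars, Lars, Sars and Cars, rose by log2 fold changes between 0.58 and 0.85. Among them Nars and Vars were uneven between the TAA livers, at 184 and 146 CPM for Nars and at 46.2 and 65.5 CPM for Vars.

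Among the cytosolic genes not called after TAA was the one with the most CPM before division by length. Aars, the alanyl enzyme, stood at 193 and 177 CPM in PBS and at 165 and 170 CPM in TAA livers (-0.14 ± 0.15, edgeR adjusted p = 0.525). It made up 18.85% and 17.66% of the cytosolic sum in the PBS livers and 11.78% and 12.02% in the TAA livers, and its promoter holds both TGATGNAA and CACGTG. Its merged exons share 1326 bases (14.3%) with Exosc6 on the same strand, so some of its reads may be shared. Of the 8 genes of the multisynthetase complex 3 were higher (median 0.37), and of the 12 outside it 9 were higher (median 0.80), against 12.1% of all genes. The 5 not called in the complex were Eprs, Qars, Kars, Mars and Dars, with log2 fold changes from -0.09 to 0.44. No test of the difference between these groups was made.

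Nars2, the mitochondrial asparaginyl enzyme (chr7:96951505-97064758, plus strand), fell from 20.1 and 21.2 CPM to 10.9 and 10.6 CPM after TAA (-0.94 ± 0.16, edgeR adjusted p = 0.0137). Fars2, the mitochondrial phenylalanyl enzyme, fell from 26.1 and 29.7 CPM to 15.03 and 15.9 CPM (-0.85 ± 0.16, edgeR adjusted p = 0.0173). Mars2 was at the other end of the mitochondrial set, at 3.40 and 4.97 CPM in PBS and 6.19 and 9.51 CPM in TAA livers (0.91 ± 0.33, edgeR adjusted p = 0.0954).

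**Figure D2:**
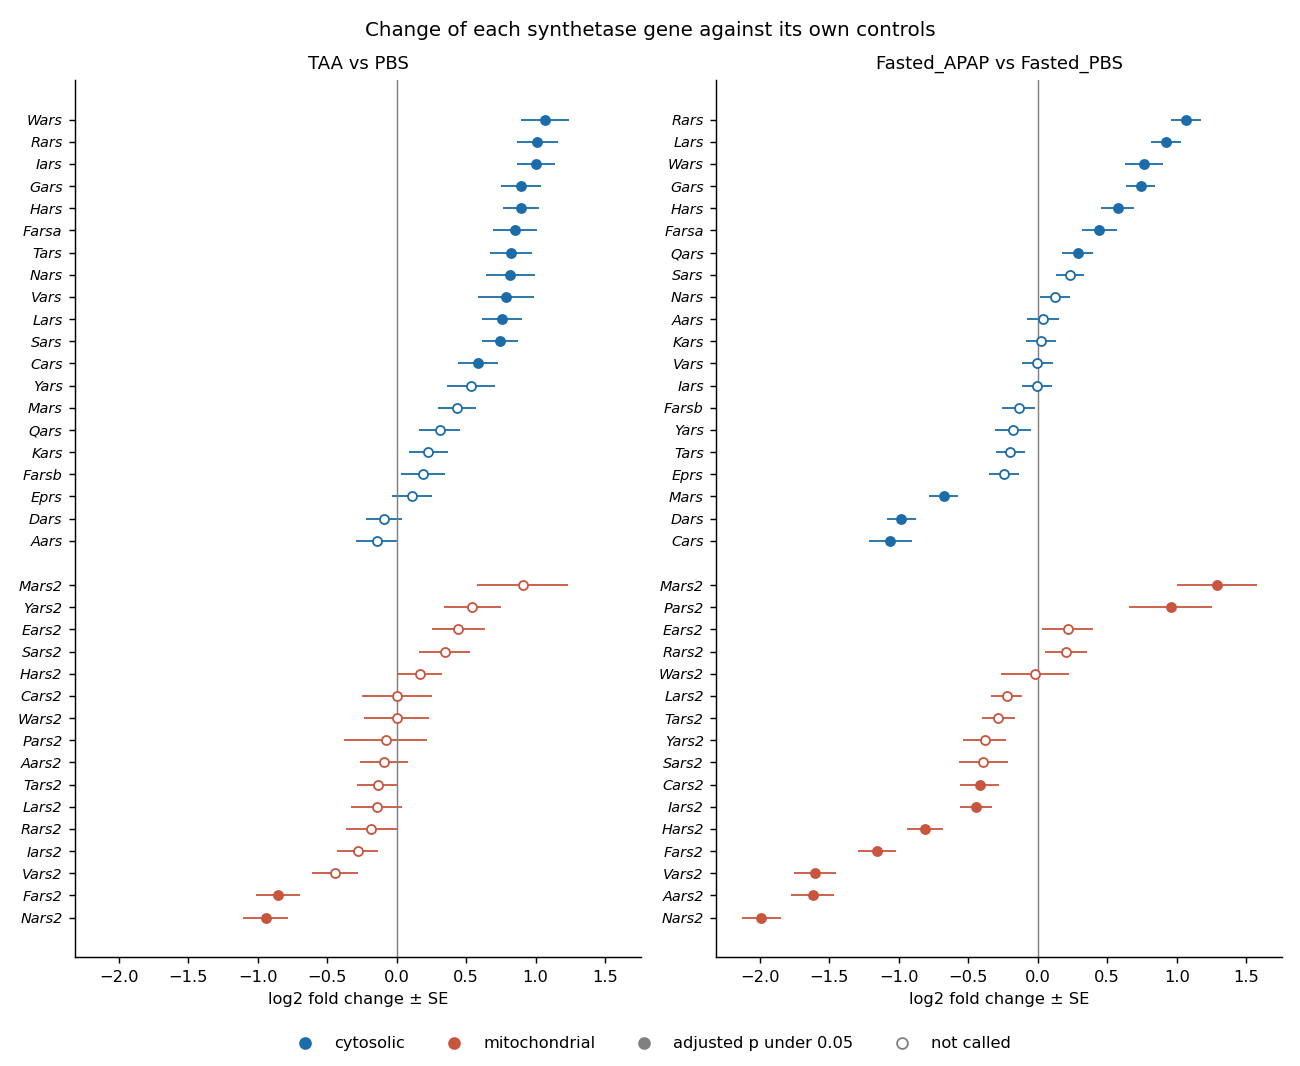
log2 fold change ± SE of 36 of the 37 genes in TAA vs PBS (left) and Fasted_APAP vs Fasted_PBS (right), ordered within the cytosolic (blue) and mitochondrial (red) sets, filled where the edgeR adjusted p was under 0.05. After TAA 12 cytosolic genes were higher (60%, against 12.1% of all genes) and 2 mitochondrial genes lower (11.8%, against 13.8% of all genes). After APAP 7 of the mitochondrial genes plotted were lower while the cytosolic genes spread to both sides of 0.

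After APAP, cytosolic genes were called in both directions and 8 of the 17 mitochondrial genes fell. Of the 20 cytosolic genes 7 were higher (35%, against 28.6% of the 14794 genes tested) and 3 were lower (15%, against 27.5%). The higher ones were Rars, Lars, Wars, Gars, Hars, Farsa and Qars, and the lower ones were Cars, Dars and Mars. The share of cytosolic genes called higher is near that of all genes. The cytosolic median was 0.03 on the log2 scale, beside 0.04 for all genes, and 9 cytosolic genes lay above and 7 below both controls, against 41.3% and 38.1% of all genes. Of the 17 mitochondrial genes 8 were lower (47.1%), among them Nars2, Aars2, Vars2, Fars2, Hars2, Iars2 and Cars2, and 2 were higher (11.8%), Mars2 and Pars2. The mitochondrial median was -0.39, with 3 genes above and 12 below both controls, and it was -0.20 with library totals alone. Pars2, at 1.54 and 1.66 CPM in Fasted_PBS and 2.92 and 3.31 CPM in Fasted_APAP livers, lost its call whichever liver was left out (edgeR adjusted p from 0.0541 to 0.110), so that 1 mitochondrial gene, Mars2, was then called higher. The number called lower was between 6 and 9 when each liver was left out in turn. Cars2, at a log2 fold change of -0.42, lost its call whichever liver was left out.

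Rars showed the largest rise among the cytosolic genes, from 24.7 CPM in both Fasted_PBS livers to 51.7 and 51.6 CPM after APAP (1.07 ± 0.11, edgeR adjusted p = 2.1e-05). Lars, the leucyl enzyme of the multisynthetase complex and a known sensor of leucine, rose from 23.3 and 23.5 CPM to 44.9 and 43.8 CPM (0.92 ± 0.11, edgeR adjusted p = 6.38e-05). Wars rose from 13.8 and 14.8 CPM to 22.4 and 26.1 CPM (0.76 ± 0.14, edgeR adjusted p = 0.00094). Replicates lay close together for all 3 genes. The rise of Gars was of the same order, to 70.3 and 65.9 CPM from 41.8 and 39.6 CPM.

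Cars, the cysteinyl enzyme (chr7:143557230-143600090, minus strand), fell from 29.7 and 38.8 CPM to 14.9 and 17.8 CPM (-1.06 ± 0.16, edgeR adjusted p = 0.000302). It is the gene that was called in opposite directions, since it stood at 19.4 and 19.3 CPM in PBS and at 28.1 and 30.0 CPM in TAA livers (0.58 ± 0.14, edgeR adjusted p = 0.0359). Dars, the aspartyl enzyme of the multisynthetase complex, fell from 72.1 and 73.4 CPM to 34.9 and 38.7 CPM after APAP (-0.98 ± 0.11, edgeR adjusted p = 3.87e-05). Mars, the methionyl enzyme that also charges the initiator tRNA, fell from 56.8 and 55.5 CPM to 33.9 and 36.3 CPM (-0.68 ± 0.10, edgeR adjusted p = 0.00038). Mars shares 68 bases of exon with Ddit3 on the opposite strand, and Ddit3, which encodes the stress factor CHOP, rose from 6.54 and 5.26 CPM to 60.9 and 49.9 CPM. Ddit3 rose after TAA as well, from 6.59 and 4.99 CPM to 25.3 and 32.8 CPM, and its part in the value of Mars was not tested.

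Nars2 fell furthest of the 37 genes, from 28.3 and 27.2 CPM to 6.57 and 7.38 CPM, 3.97-fold lower (-1.99 ± 0.14, edgeR adjusted p = 2.21e-06). Aars2, the mitochondrial alanyl enzyme, fell from 18.0 and 16.0 CPM to 5.50 and 5.55 CPM (-1.62 ± 0.16, edgeR adjusted p = 1.88e-05). Vars2, the mitochondrial valyl enzyme with a pair of GCATGCGC matches before its start, fell from 24.0 and 24.7 CPM to 7.15 and 8.89 CPM (-1.60 ± 0.15, edgeR adjusted p = 1.55e-05). In Nars2, Aars2 and Vars2 the treated livers lay far below the controls, with no overlap. The other genes with a GCGCATGC match, Rars2 and Wars2, had log2 fold changes of 0.20 ± 0.15 and -0.02 ± 0.24 and were not called. Mars2 went the other way, from 2.23 and 4.20 CPM to 8.30 and 7.34 CPM (1.29 ± 0.29, edgeR adjusted p = 0.00385).

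Several exons are shared with other genes, and the strand setting of the counting is not given in the sources used here. Iars2 shares 2034 bases (22.9% of its merged exons) with Rab3gap2 on the opposite strand, and Hars and Hars2 share 195 bases on opposite strands. Fars2 shares 501 bases (8.72%) with Nrn1, Vars2 465 bases (8.52%) with Gm20483, and Nars2 284 bases (4.08%) with C230038L03Rik. Farsb shares 248 bases (9.47%) with Sgpp2 and Cars2 422 bases (5.83%) with Naxd. These neighbours too lie on the opposite strand, and not every overlap is listed. The values of all these members may hold reads of the neighbour. Hars2 fell after APAP, from 23.8 and 23.1 CPM to 12.6 and 14.1 CPM, while Hars rose from 32.5 and 31.0 CPM to 51.5 and 43.1 CPM, and the part of shared reads in these values was not tested.

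**Figure D3:**
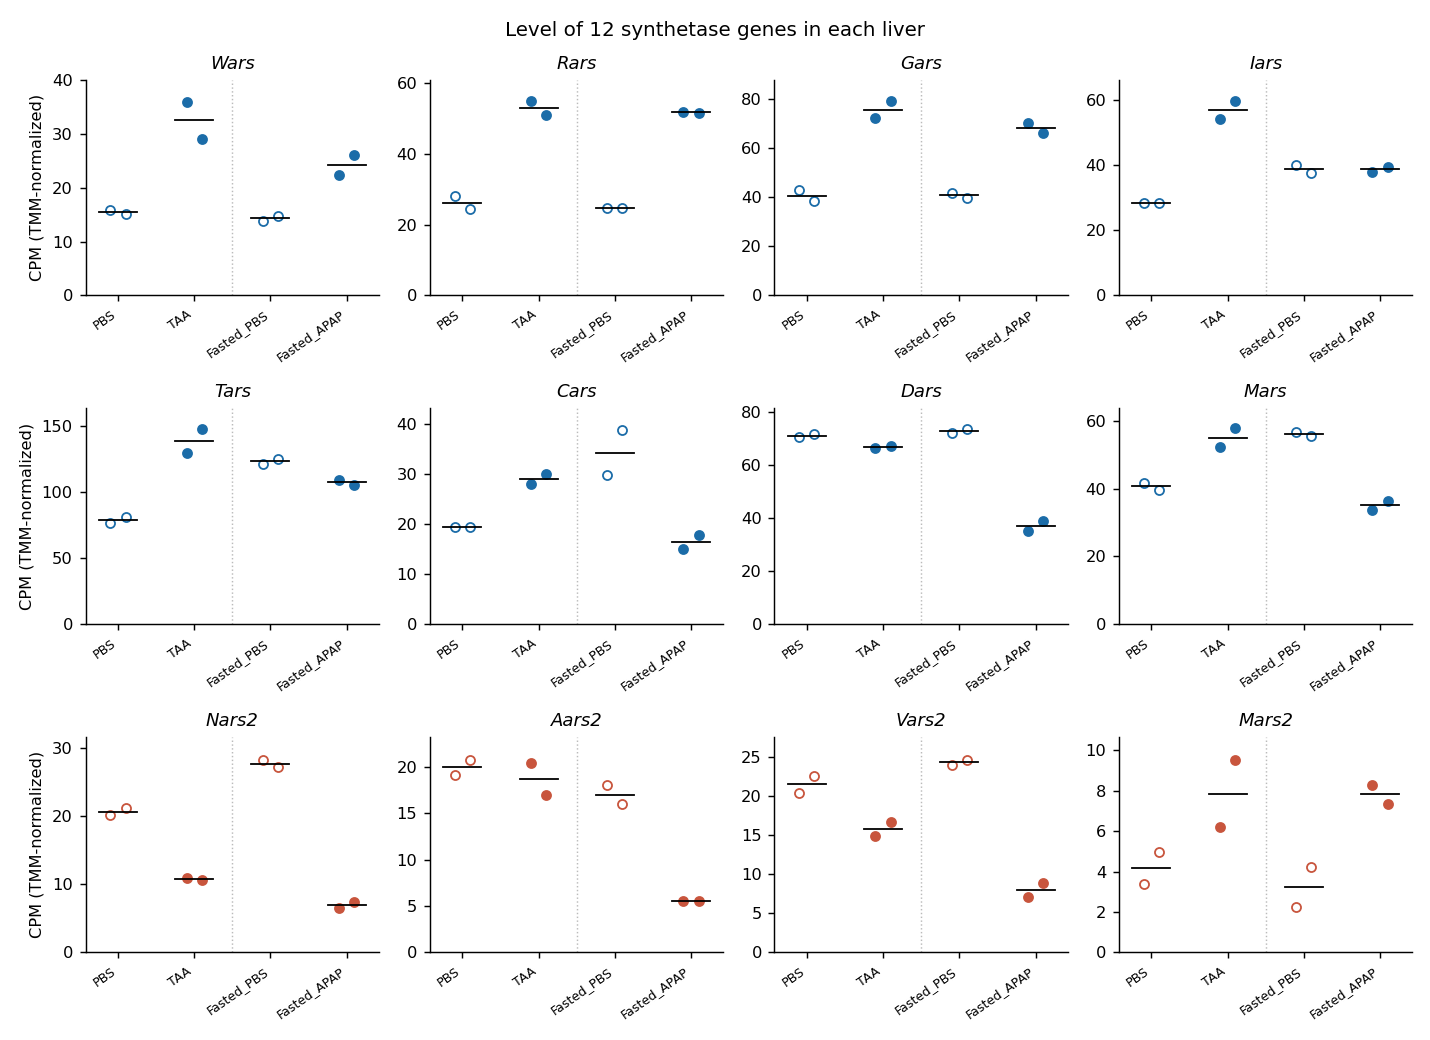
Level (CPM, TMM-normalized, axes from 0) of 12 members in each liver, cytosolic in blue and mitochondrial in red, open for controls and filled for treated livers, with group means as bars. Rars and Gars are higher after both agents, Cars is higher after TAA and lower after APAP, and Nars2 is lower after both.

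The cytosolic and the mitochondrial enzyme of the same amino acid were then compared. There were 18 such pairs for 17 amino acids, with Eprs and Fars2 each in 2 pairs. The cytosolic log2 fold change exceeded the mitochondrial one in 14 of 18 pairs after TAA (median difference 0.85) and in 14 of 18 after APAP (median difference 0.74). This count stayed between 13 and 16 under every scaling, tool and omission of a liver that was tried. The largest difference was that of asparagine in both models. The Nars to Nars2 ratio was 4.62 and 4.44 in PBS and 16.9 and 13.7 in TAA livers. It was 3.71 and 3.73 in Fasted_PBS and 16.3 and 15.9 in Fasted_APAP livers. In the TAA model Nars rose and Nars2 fell, and in the APAP model the ratio moved through Nars2, since Nars stood at 105 and 102 CPM in the controls and 107 and 117 CPM after APAP.

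Phenylalanine and valine behaved likewise. The Farsa to Fars2 ratio went from 0.477 and 0.443 to 1.48 and 1.51 after TAA and from 0.680 and 0.707 to 2.10 and 2.09 after APAP. For Farsb, the other subunit, the ratio to Fars2 went from 1.16 and 0.853 to 2.19 and 1.92 after TAA. After APAP it went from 1.18 and 1.19 to 2.27 and 2.54. These ratios are of CPM not divided by length, so a value of 1 marks no balance. The Vars to Vars2 ratio went from 1.49 and 1.51 to 3.10 and 3.92 after TAA and from 1.15 and 1.13 to 3.80 and 3.19 after APAP. Methionine went the opposite way. The Mars to Mars2 ratio was 12.3 and 8.01 in PBS and 8.45 and 6.09 in TAA livers, where the groups overlap, and 25.4 and 13.2 in Fasted_PBS and 4.08 and 4.94 in Fasted_APAP livers, where they do not. Proline and cysteine went the same way as methionine after APAP, where the Eprs to Pars2 ratio went from 73.9 and 62.7 to 31.7 and 27.9 and the Cars to Cars2 ratio from 2.17 and 2.68 to 1.41 and 1.70. Glutamate (Eprs and Ears2) was lower in its ratio in both models, at 10.1 and 9.06 against 8.36 and 6.88 for TAA and at 11.5 and 13.8 against 9.50 and 8.74 for APAP.

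**Figure D4:**
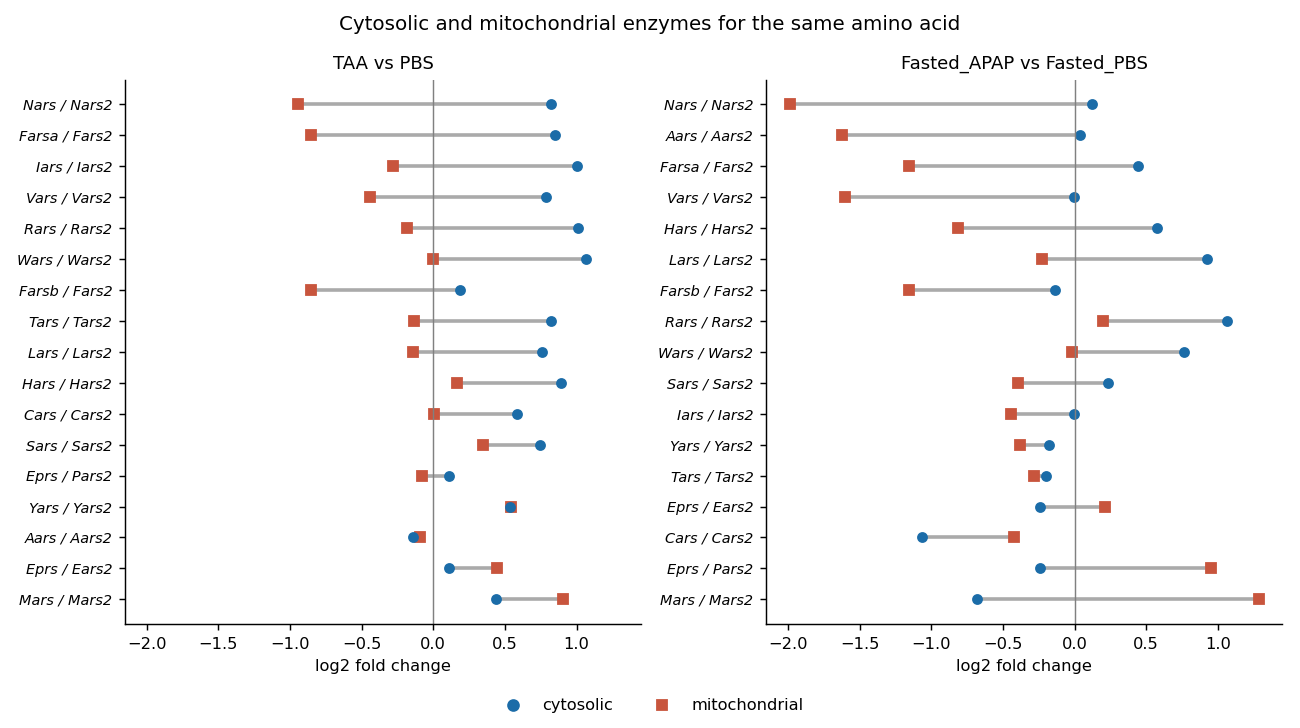
log2 fold change of the cytosolic (blue circle) and mitochondrial (red square) enzyme of the same amino acid, joined by a line, for 17 of the 18 pairs in TAA vs PBS (left) and Fasted_APAP vs Fasted_PBS (right), ordered by the difference. The cytosolic gene lies to the right in 13 of the 17 pairs plotted in each model, with Nars and Nars2 at the top of both and Mars and Mars2 at the bottom of both.

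The 2 models were set side by side. Of the cytosolic genes 6 were higher in both (Farsa, Gars, Hars, Lars, Rars and Wars), 5 were higher after TAA and not called after APAP, and Cars was called in opposite directions. Of the mitochondrial genes Nars2 and Fars2 were lower in both, and 6 were lower after APAP and not called after TAA. The share of all genes with the same calls in both comparisons is not given here, so these joint counts are a description only. The difference of the responses was tested in a fit over all 8 livers, as the TAA log2 fold change minus the APAP log2 fold change. It was called for 9 of the 37 members, all with the TAA response the higher, against 4.63% of the 17381 genes tested. It was called for 0 in the other direction (6.37% of all genes), where 1 member had an unadjusted p under 0.05 and DESeq2 called 0. The 9 genes were 5 cytosolic and 4 mitochondrial ones. Feeding and agent differ together here and cannot be told apart.

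The largest difference was that of Cars (1.62 ± 0.22, edgeR adjusted p = 0.00431), followed by Aars2 (1.50 ± 0.22, edgeR adjusted p = 0.00523). Aars2 stood at 19.2 and 20.8 CPM in PBS and at 20.4 and 17.0 CPM in TAA livers, which overlap, in contrast to its fall after APAP. Iars differed by 0.98 ± 0.16 (edgeR adjusted p = 0.00723), being called after TAA and standing at 40.1 and 37.7 CPM in Fasted_PBS and 37.9 and 39.6 CPM in Fasted_APAP livers. Tars, the threonyl enzyme with a TTGCATCA match just before its start, differed by 0.99 ± 0.17 (edgeR adjusted p = 0.0095). It rose from 76.2 and 81.1 CPM to 130 and 148 CPM after TAA and stood at 122 and 125 CPM in Fasted_PBS and 109 and 105 CPM in Fasted_APAP livers. Mars (1.09), Dars (0.86), Vars2 (1.13), Nars2 (1.02) and Hars2 (0.95) make up the rest, with adjusted p between 0.00522 and 0.0158. Of the 4 mitochondrial differences, 1, that of Aars2, was called without Fasted_PBS replicate 1, without Fasted_PBS replicate 2 and without Fasted_APAP replicate 1, and of the 5 cytosolic ones 3 were called without Fasted_PBS replicate 2. The values themselves ran from 0.79 to 1.80 over all omissions.

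**Figure D5:**
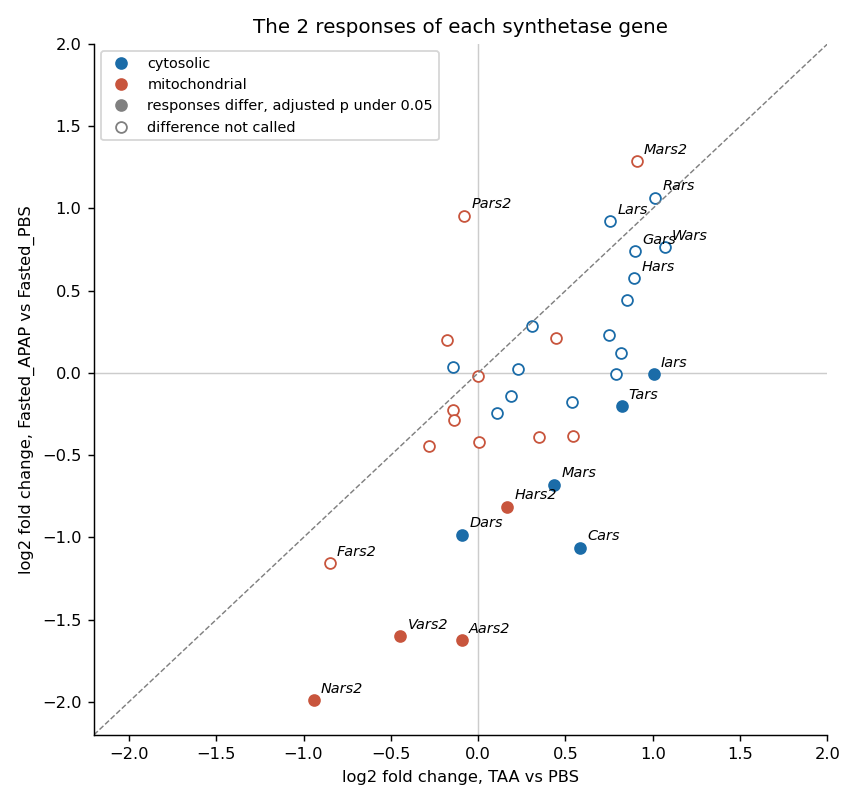
log2 fold change of 36 members after TAA (x axis) against that after APAP (y axis), cytosolic in blue and mitochondrial in red, filled where the difference of the responses had an edgeR adjusted p under 0.05; the dashed line marks equal responses. All 9 filled points lie below the line, with Cars, at 0.58 and -1.06, the farthest from it.

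The other genes of the pathway were taken from hand-written lists. Among the scaffold proteins that hold the multisynthetase complex together, Aimp2 rose from 7.18 and 7.30 CPM to 17.3 and 19.5 CPM after TAA (1.35 ± 0.18, edgeR adjusted p = 0.00746) and from 7.92 and 6.14 CPM to 13.7 and 12.6 CPM after APAP. Eef1e1 rose from 8.22 and 6.76 CPM to 18.5 and 19.2 CPM after TAA (1.33 ± 0.19, edgeR adjusted p = 0.00884) and from 7.72 and 5.82 CPM to 11.5 and 10.8 CPM after APAP. The remaining scaffold gene, Aimp1, had log2 fold changes of 0.16 and 0.22 and was not called. The log2 fold changes of Aimp2 and Eef1e1 after TAA lay above the median of the 8 enzymes of the complex, 0.37. That of Aimp1, 0.16, lay below it, and a difference between scaffolds and enzymes was not tested.

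Of the genes of the integrated stress response and amino acid supply, 19 of 32 were higher and 1 lower after TAA (median 1.28), and 16 of 31 were higher and 5 lower after APAP (median 1.09). These are 59.4% and 51.6% higher, against 12.1% and 28.6% of all genes. The lower shares were 3.13% and 16.1%, against 13.8% and 27.5% of all genes. The highest log2 fold change of the list after APAP was 13.8. A gene with such a change could pass the filter through the Fasted_APAP livers alone, and for such genes the APAP count carries no weight. Atf4 rose from 112 and 94.4 CPM to 220 and 266 CPM after TAA (1.23 ± 0.19, edgeR adjusted p = 0.0101) and from 88.3 and 83.7 CPM to 276 and 243 CPM after APAP (1.60 ± 0.12, edgeR adjusted p = 3.18e-06). Slc3a2, the heavy chain of amino acid exchangers, rose from 36.7 and 33.5 CPM to 82.3 and 78.5 CPM after TAA and from 30.1 and 31.0 CPM to 106 and 104 CPM after APAP. Ppp1r15a, which encodes the stress-induced eIF2α phosphatase subunit GADD34, rose in both, by 2.78 ± 0.44 and 2.49 ± 0.17 on the log2 scale. Slc38a2, a neutral amino acid transporter, was higher after TAA (0.59 ± 0.16) and lower after APAP (-0.48 ± 0.13). The test of the difference is not given for this gene. Shmt2, the mitochondrial serine hydroxymethyltransferase, fell from 251 and 192 CPM to 62.7 and 73.3 CPM after APAP.

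The translation machinery of each compartment was counted in the same way. Of 43 cytosolic initiation and elongation factors 21 were higher and 0 lower after TAA (median 0.50). After APAP 30 were higher and 2 lower (median 0.46). That is 48.8% and 69.8% higher, against 12.1% and 28.6% of all genes, and 0% and 4.65% lower, against 13.8% and 27.5%. Eif4a1, the helicase of cap-dependent initiation, rose from 184 and 161 CPM to 451 and 503 CPM after TAA and from 203 and 202 CPM to 657 and 651 CPM after APAP. Beside it, the cytosolic synthetase median after APAP was 0.03. Of 20 mitochondrial translation factors 0 were higher and 2 lower after TAA (median -0.18). After APAP 4 were higher and 11 lower (median -0.54). That is 10% and 55% lower, against 13.8% and 27.5% of all genes, and 0% and 20% higher, against 12.1% and 28.6%. Tufm, the mitochondrial elongation factor Tu, stood at 48.1 and 64.4 CPM in PBS and 47.2 and 52.9 CPM in TAA livers and fell from 102 CPM in both Fasted_PBS livers to 29.2 and 34.9 CPM after APAP (-1.67 ± 0.12, edgeR adjusted p = 2.22e-06). Gfm2, the mitochondrial ribosome recycling factor, was lower after both, at -0.73 ± 0.17 and -1.48 ± 0.12. Of 78 mitochondrial ribosomal protein genes 1 was higher and 6 lower after TAA (median -0.07), and 11 were higher and 23 lower after APAP (median -0.17). The shares that were lower, 7.69% and 29.5%, are below and near those of all genes, 13.8% and 27.5%. Those that were higher, 1.28% and 14.1%, are below the 12.1% and 28.6% of all genes.

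Markers of other cell types and of hepatocytes were also called, and their part in the values above was not tested. Of 11 hepatocyte markers 5 were lower after TAA (45.5%, against 13.8% of all genes) and 9 after APAP (81.8%, against 27.5%), with 0 higher. Their sum ran from 78400 to 109485 CPM in PBS and from 50850 to 96603 CPM in TAA livers, which overlap. It ran from 113183 to 130237 CPM in Fasted_PBS and from 78183 to 90210 CPM in Fasted_APAP livers, which do not. Neutrophil markers summed to 81.2 to 102 CPM in PBS and 100 to 120 CPM in TAA livers. Of 10 tested after TAA 5 were higher and 3 lower (50% and 30%, against 12.1% and 13.8% of all genes). In the fasted model 7 of 11 neutrophil markers passed the filter on low counts. These summed to 2.76 to 3.37 CPM in Fasted_PBS and 22.7 to 24.1 CPM in Fasted_APAP livers. All 7 were called higher, against 28.6% of all genes. Genes this low in the controls could pass the filter through the Fasted_APAP livers alone, so this count carries no weight. Kupffer and macrophage markers had 3 higher and 6 lower of 14 after TAA (21.4% and 42.9%), and 3 higher and 2 lower after APAP (21.4% and 14.3%). Among them the highest log2 fold change after APAP was 9.22. A gene with such a change could likewise pass the filter through the Fasted_APAP livers alone. Endothelial markers had 2 higher and 2 lower of 7 after TAA (28.6% each), and 3 higher and 2 lower after APAP (42.9% and 28.6%). Cholangiocyte markers had 1 higher (20%) and 0 lower of 5 after each. Among all genes 12.1% were higher and 13.8% lower after TAA, and 28.6% and 27.5% after APAP. Both Kupffer shares after APAP are below these. Lymphocyte markers had 0 called of 9 after TAA and 1 lower of 2 tested after APAP (50%). Stellate cell markers had 2 higher and 1 lower of 7 after TAA (28.6% and 14.3%), and 0 higher and 2 lower after APAP (28.6%). Cell cycle markers had 2 higher and 1 lower of 7 after TAA (28.6% and 14.3%), and 2 higher and 2 lower of 6 tested after APAP (33.3% each). None of these marker genes was at 0 in all livers of a model.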

How the data were processed

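Liver RNA of 8 mice was analysed. The authors deposited whole-number counts of each gene in the fed livers (51826 genes) and estimated counts, partly fractional, for the fasted livers (55964 entries, of which 548 assembled loci holding 0.457% to 2.46% of the totals name no gene and were left out). Plain counts had been planned for, so the estimated counts were rounded first, which touched 13 members. The submitters' processing notes name Trim Galore, HISAT2, featureCounts and GRCm38 (mm10). Versions, annotation and strand setting are not given in the sources used here. Columns of other samples numbered 0.

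Genes were matched between the tables by ID, positions and merged exon lengths came from GENCODE on GRCm38, and Mars carries a newer name in the fasted table. Low genes were removed with filterByExpr, set to a minimum count of 10 and a total of 15. TMM factors gave the scale, and the test was made in R 4.3.3 with edgeR 4.0.16 (quasi-likelihood, robust dispersions, Benjamini-Hochberg adjustment, adjusted p under 0.05). The approximate SE follows from the size of the log2 fold change over the root of its F statistic. On simulated counts the test recovered the direction of changed genes, but more of its calls were false than the level aimed at. Labels do not say more of the replicates than n = 2 per group, so p-values measure the spread between these livers. The fewest counts of a member in a liver were 36.

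The members and lists were chosen with earlier results of these data known. Values in each liver are given for the 5 called cytosolic and 5 called mitochondrial members of largest change per comparison, those called in opposite directions and those called in the difference of the responses; of other lists, up to 4 called genes of highest level per direction, and any other gene named was chosen after its values were seen. Alternatives were DESeq2 1.42.0 and its kind of size factors, library totals, no filter, dispersions that are not robust, a replicate block, a single fit of all 8 livers, a log2 fold change beyond 1 as well, and omission of each liver. Plots used matplotlib 3.10.9 in Python 3.11.15. Values of some items are not reported here, although counts over a class include them.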

Additional observations from a re-analysis of the deposited data

Results flagged for a closer look

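The response of 9 genes differed between the 2 models by the test of the difference itself (TAA log2 fold change minus APAP log2 fold change, edgeR fit of all 8 livers). The differences were 1.62 for Cars, 0.86 for Dars, 0.98 for Iars, 1.09 for Mars and 0.99 for Tars among the cytosolic genes, and 1.50 for Aars2, 0.95 for Hars2, 1.02 for Nars2 and 1.13 for Vars2 among the mitochondrial genes. Fed and fasted mice, agents and tables differ together between the models and cannot be told apart. Groups of 2 livers are too small for a test of single livers that stand apart.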

How the results depend on the processing

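With 2 livers per group the calls of the TAA comparison depend on each PBS liver, and depth limits the lowest members, such as Pars2 with 38 and 36 counts in Fasted_PBS livers. Omitting each liver in turn (the lone liver of a group is then assumed to vary like the others), the TAA comparison called 0 to 10 cytosolic genes higher, 0 to 2 mitochondrial genes lower, 322 to 1498 of all genes higher and 415 to 1869 lower. The APAP comparison called 5 to 6 cytosolic genes higher, 3 lower, 1 mitochondrial gene higher and 6 to 9 lower, with 3412 to 3624 of all genes higher and 3386 to 3809 lower. The difference of the responses was called for 3 to 7 cytosolic and 1 to 5 mitochondrial genes, with 276 to 1258 of all genes higher and 421 to 1227 lower. Small changes crossed 0. After TAA, Aars2 ran from -0.23 to 0.038, Cars2 from -0.29 to 0.26, Pars2 from -0.21 to 0.042 and Wars2 from -0.10 to 0.10. After APAP, the cytosolic median ran from -0.011 to 0.075, Aars from -0.045 to 0.11, Ears2 from -0.018 to 0.41, Iars from -0.10 to 0.028, Kars from -0.055 to 0.10, Vars from -0.050 to 0.028 and Wars2 from -0.21 to 0.13.

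With library totals alone, 3 mitochondrial genes were higher after TAA and the sign turned for the mitochondrial median (0.12), Aars (0.061), Aars2 (0.12), Dars (0.12), Lars2 (0.062), Pars2 (0.12), Rars2 (0.021), Tars2 (0.067) and Wars2 (0.20). After APAP it turned for Farsb (0.046), Iars (0.18), Vars (0.18), Wars2 (0.16) and Yars (0.0016). One fit of all 8 livers gave 1 mitochondrial gene higher after TAA, with Wars2 at 0.0015, and turned Iars (0.025), Vars (0.027) and Wars2 (0.013) after APAP. Cars2 stood at -0.0082 after TAA with size factors of the DESeq2 kind and with DESeq2, at -0.0069 with no filter and at -0.0079 with the replicate block. DESeq2 called 1 mitochondrial gene higher after APAP and 8 cytosolic genes in the difference. With a log2 fold change beyond 1 required as well, TAA left 3 cytosolic genes higher, 0 mitochondrial genes lower and 1348 of all genes higher. APAP then left 1 cytosolic gene higher, 1 lower, 1 mitochondrial gene higher and 5 lower, with 2375 of all genes higher and 2123 lower, and the difference left 2 cytosolic genes. The cause was not tested beyond the construction of each setting. Deviations of livers with the same replicate number correlated at 0.066 (TAA) and 0.057 (APAP) over all genes. Each value rests on 1 deviation per group, so it cannot decide whether the numbers pair livers. The replicate block gave 11 cytosolic genes higher after TAA and 6 after APAP, and 5 cytosolic and 4 mitochondrial genes in the difference.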

Other observations

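Among relatives of the synthetases that the rule leaves out, Ptrh2, a peptidyl-tRNA hydrolase, rose after APAP, from 12.5 and 10.7 CPM to 20.7 and 18.6 CPM. Tarsl2, a further threonyl enzyme of the cytosol, fell after APAP, from 12.3 and 11.5 CPM to 4.11 and 5.80 CPM (-1.26 ± 0.20, edgeR adjusted p = 0.000492), in the model where Tars stood at 109 and 105 CPM.

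Lars2, the mitochondrial leucyl enzyme, stood at 10.3 and 10.4 CPM in PBS livers and at 35.4 and 39.3 CPM in Fasted_PBS livers. Feeding and the counting of the 2 tables differ together between these groups, and their parts in this gap cannot be told apart.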
